A study of Homo sapiens with 12 samples.

Results

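A set of 71 protein-coding genes of the axon guidance families was taken from the 33694 human genes that the count tables list: every gene whose symbol begins with SEMA3 to SEMA7, PLXNA to PLXND, EFNA, EFNB, EPHA or EPHB, the ROBO, SLIT, NTN and UNC5 genes, and NRP1 and NRP2. By family they are 20 semaphorins, 9 plexins, 2 neuropilins, 9 ephrins, 9 EphA and 5 EphB receptors, 3 Slits, 4 Robo receptors, 4 netrins and 6 genes whose symbols begin with UNC5. The symbol rule also caught UNC50, which encodes a Golgi protein and not a netrin receptor, and UNC5CL, which encodes a death-domain protein related to the UNC5 receptors, and both are kept here under the rule. A further 14 genes with matching symbols are not protein-coding and were left out.

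RNA came from A375, an established human melanoma cell line that carries mutant BRAF, and from A375-BIR, which the labels call its BRAF-inhibitor-resistant form; how A375-BIR was derived, and whether it is 1 clone, is not given in the sources used here. The groups were A375-BIR with dabrafenib (3 libraries), A375-BIR with DMSO (3), A375 with dabrafenib (3) and A375 with DMSO (3, of which 1 could be used). Dabrafenib, an inhibitor of the mutant BRAF kinase, was given at 200 nM for 48 h, and DMSO, the solvent, at 0.1%, all in RPMI with serum. The labels call the 3 libraries of a group biological replicates, without saying that they came from separate cultures, so that p-values measure the spread between these samples. Libraries were made with a 3′ tag kit, which reads near the polyadenylated end of a transcript, so that counts do not scale with transcript length.

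The 10 usable libraries held 198690 to 1999840 gene counts each, and the guidance genes together took 0.126% to 0.222% of them. The A375 DMSO files of replicates 2 and 3 list mouse genes under labels that state human, and they entered no comparison; the remaining A375 DMSO library carries another run stamp than the other 9. Where a comparison uses that library, run and group cannot be told apart, and no spread could be measured within its group. The SE and p-values of such comparisons rest on the spread within the other groups. That library was the deepest, yet 49 of the 8152 genes with at least 5 CPM in each of the other 9 libraries had at most 3 counts in it, UNC50 among them (a measure chosen after the data were seen). Mitochondrial transcripts took 4.88% to 7.21% of counts in A375-BIR with dabrafenib, 4.63% to 5.49% in A375-BIR with DMSO, 10.7% to 15.1% in A375 with dabrafenib and 15.1% in A375 with DMSO. Markers of the melanocyte lineage (7 of 7 with counts) summed to 209 to 308 CPM in A375-BIR with dabrafenib and 189 to 208 CPM in A375-BIR with DMSO. They summed to 2777 to 3278 CPM in A375 with dabrafenib and 1329 CPM in A375 with DMSO. The markers did not differ alike. In that order of groups, MITF stood at 178, 157, 242 and 405 CPM (means where there were 3 libraries). SOX10 stood at 52.9, 40.4, 947 and 464 CPM. MITF was the largest part of the sum in both A375-BIR groups. DCT was the largest part in A375 with dabrafenib, at a mean of 1718 CPM. TYR and MLANA were at 0 in both A375-BIR groups, and MLANA had 1 count in all. The 3 Schwann cell markers summed to 30.5 to 36.1, 7.93 to 13.3, 382 to 422 and 192 CPM in the same order of groups. The 4 neuron markers summed to 34.4 to 41.1, 33.3 to 40.0, 24.3 to 44.5 and 17.9 CPM in that order, most of it SYT1. SNAP25 had 2 counts, STMN2 had 1 and RBFOX3 had 14 in all libraries together. RBFOX3 averaged 3.29 CPM in A375-BIR with dabrafenib and 2.38 CPM in A375-BIR with DMSO, and was at 0 in both A375 groups. The 5 fibroblast markers summed to 8.40 to 15.5, 3.33 to 6.94, 11.1 to 28.4 and 14.2 CPM. Endothelial, leukocyte and epithelial markers stayed at or under 5.56 CPM in every library. The part of these markers and shares in the results below was not tested.

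Guidance molecules were named for steering growing axons, and they act in many tissues as short-range signals that move, repel or hold cells. Class 3 semaphorins are secreted and bind neuropilins, which pair with plexins that signal through small GTPases, while most other semaphorins sit in the membrane and bind plexins directly. Ephrins and Eph receptor kinases signal between touching cells and in both directions, Slits act through Robo receptors, and netrins through DCC and the UNC5 receptors. Melanocytes descend from the neural crest, whose migrating cells read the same cues.

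Of the 71 genes, 8 had no count in any library (EFNA2, the readthrough EFNA4-EFNA3, EPHA1, EPHA8, EPHA10, NTN3, UNC5A and UNC5D). A further 27 had 1 to 60 counts in all and did not pass the filter on low counts, which left 36 tested genes: 13 semaphorins, 6 plexins, both neuropilins, 4 ephrins, 2 EphA and 3 EphB receptors, 1 Slit, 3 Robo receptors, 1 netrin and UNC50. Of those 36, 14 exceeded the filter's level of 17.5 CPM, on totals without TMM factors, in at least 1 library of every group. Another 8 did so in a single group, where 1 library was enough. Those by way of A375-BIR with dabrafenib were NTN4, SEMA3F, SEMA4D and SLIT2. SEMA7A passed by A375-BIR with DMSO, SEMA4B and SEMA6C by A375 with dabrafenib, and EPHB3 by A375 with DMSO. EFNA3, EFNB2, EPHA2, PLXNA2, ROBO4 and SEMA3D passed only through A375-BIR groups, and EPHA3 and PLXND1 only through A375 groups. Where these genes are called higher in a group that let them pass, the p-value is not free of that selection. Levels are given in CPM, which are counts scaled to a common library total after TMM factors, and a gene was called where its Benjamini-Hochberg adjusted p over all 10236 genes tested was under 0.05 in edgeR's quasi-likelihood test. NRP2 had the most counts (3196), before SEMA3C (1022), SEMA3A (880), EFNA1 (781) and PLXNB2 (615).

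**Figure D1:**
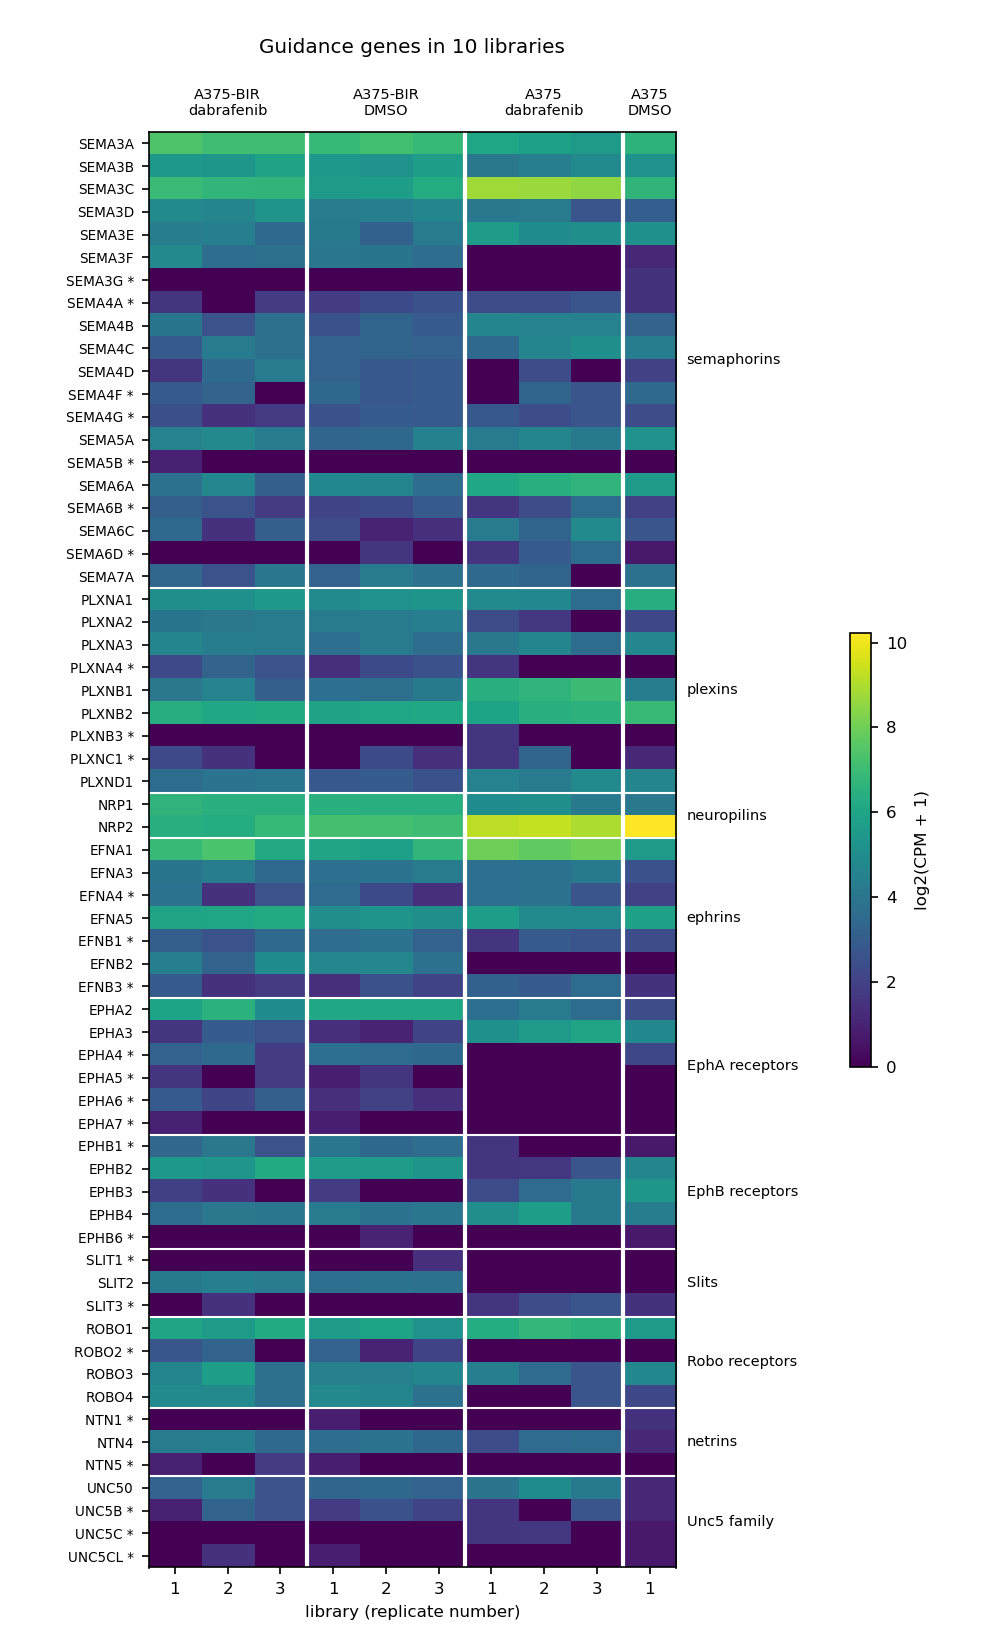
Level of the 63 guidance genes with any count, as log2(CPM + 1), in 10 libraries (columns, by group) and by family (rows); an asterisk marks the 27 that were not tested. NRP2 is brightest in A375, EPHA2 and EPHB2 are brighter in A375-BIR than in A375 with dabrafenib, and EFNB2 and SLIT2 are dark in all 4 A375 libraries.

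The first question was what dabrafenib did to these genes in the resistant line. SEMA3C and EFNA5 rose in A375-BIR and no guidance gene was called lower, so that 2 of 36 were called, against 2.46% of all genes tested (1.36% higher and 1.10% lower). The median log2 change of the 36 was 0.30, against 0.02 over all genes tested. All tested plexins, neuropilins, Eph and Robo receptors missed the threshold in this edgeR comparison; at an unadjusted p under 0.05 there were 6 genes, 5 of them higher, and DESeq2 called 1 of the 36.

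SEMA3C encodes a secreted class 3 semaphorin that binds both neuropilins and is needed for neural crest migration into the outflow tract of the mouse heart. Its levels were 123, 107 and 102 CPM in the A375-BIR dabrafenib libraries, against 45.8, 51.5 and 76.6 CPM in the A375-BIR DMSO libraries. Every treated library stood above every DMSO library. In bulk samples such as these, fewer cells with a transcript and less of it per cell cannot be told apart. The log2 change was 1.00 ± 0.20 (SE; adjusted p = 0.00238, n = 3 and 3), and it missed the threshold without replicate 1 of the A375-BIR DMSO libraries (log2 0.84, adjusted p = 0.0865) and with all libraries thinned to the smallest total (0.72, 0.337).

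EFNA5 encodes a lipid-anchored ephrin that binds EphA receptors and also EPHB2. It stood at 62.5, 63.6 and 76.3 CPM with dabrafenib and at 32.5, 38.6 and 33.3 CPM with DMSO in A375-BIR, again with no overlap. Its log2 change was 0.92 ± 0.24 (adjusted p = 0.0233). The call was lost when any 1 of the 3 A375-BIR DMSO libraries was left out (adjusted p 0.0627 to 0.183), with DESeq2 (0.115) and after thinning (0.0576).

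NRP2, a co-receptor for class 3 semaphorins and for VEGFC, and EFNA1, the lipid-anchored ligand of EPHA2, came nearest to the threshold among the genes not called. NRP2 had 84.0, 79.1 and 114 CPM with dabrafenib and 149, 143 and 133 CPM with DMSO (log2 -0.65 ± 0.19, adjusted p = 0.0585). EFNA1 had 122, 162 and 71.3 CPM with dabrafenib and 62.5, 53.5 and 105 CPM with DMSO, and its groups overlapped (0.78 ± 0.23, adjusted p = 0.0655). Both were called without replicate 3 of the A375-BIR dabrafenib libraries, NRP2 at -0.79 (adjusted p = 0.00963) and EFNA1 at 0.99 (0.00176).

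The second question was how the lines differ under the same drug, where all 6 libraries share a run stamp. In A375-BIR 12 of the 36 genes were higher than in A375 and 10 lower, against 42.7% of all genes tested called in either direction (22.6% higher and 20.2% lower). Their median log2 difference was 0.19, against 0.04 over all genes. Each of the neuropilin, ephrin, Eph, plexin, Robo and class 3 semaphorin families held genes called in opposite directions.

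**Figure D2:**
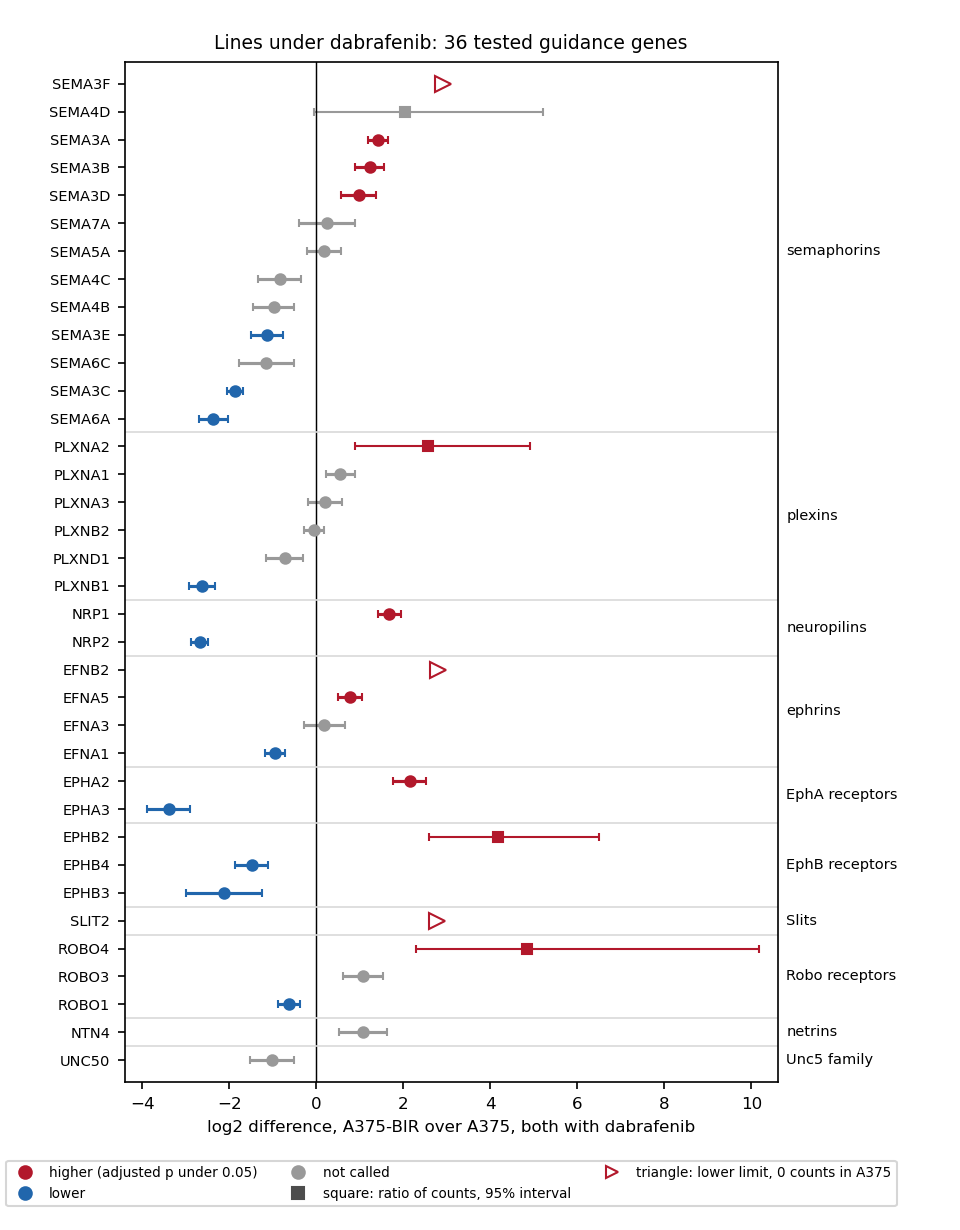
Log2 difference of the 36 tested guidance genes between A375-BIR and A375, both with dabrafenib, by family. Circles are fitted values with their SE. Squares are ratios of summed counts with their exact 95% counting interval (1 to 3 counts in A375). Triangles are folds against 3 counts in A375, where it had no count, with the A375-BIR count taken as exact. NRP1 lies at 1.68 and NRP2 at -2.68, and EPHA2 at 2.15 and EPHA3 at -3.39.

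Of the tested semaphorins 4 were higher in A375-BIR under dabrafenib (SEMA3A, SEMA3B, SEMA3D and SEMA3F), 3 were lower (SEMA3C, SEMA3E and SEMA6A) and 6 were not called. SEMA3A, the secreted semaphorin first known for collapsing sensory growth cones, had 172, 136 and 135 CPM in A375-BIR, against 62.9, 54.8 and 44.5 CPM in A375 (log2 1.42 ± 0.22, adjusted p = 2.98e-06). SEMA3C went the other way, with 123, 107 and 102 CPM in A375-BIR, against 434, 412 and 367 CPM in A375 (-1.86 ± 0.18, adjusted p = 1.35e-10). Both sets of libraries were far apart, and both calls held under every alternative run.

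SEMA3F, a secreted semaphorin that acts chiefly through NRP2, had 27.1, 12.04 and 12.7 CPM in A375-BIR and not 1 count in the 3 A375 dabrafenib libraries. Set against 3 counts over that group (2.66 CPM), it was 7.54-fold higher in A375-BIR (adjusted p = 4.80e-05). Its own count is taken as exact here, and it passed the filter only through A375-BIR with dabrafenib. SEMA6A, a membrane semaphorin that binds A-type plexins, had 13.1, 25.8 and 7.63 CPM in A375-BIR, against 68.9, 85.6 and 100.2 CPM in A375 (log2 -2.36 ± 0.33, adjusted p = 2.98e-07). Among the rest, SEMA3B stood 1.23 higher (± 0.34), SEMA3D 0.98 higher (± 0.40) and SEMA3E fell by 1.14 (± 0.36) on the log2 scale. The SEMA3B call was lost after thinning (0.70, adjusted p = 0.325) and that of SEMA3D in 9 of its 13 alternatives (adjusted p up to 0.143). That of SEMA3E was lost in 3 of 14: without replicate 1 of A375 (-0.85, adjusted p = 0.155), with DESeq2 (-1.13, 0.0873) and after thinning (-1.38, 0.0603).

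The neuropilins, which bind class 3 semaphorins and VEGF at the cell surface, differed in opposite directions. NRP1 had 101, 89.4 and 84.0 CPM in A375-BIR, against 30.4, 32.9 and 16.7 CPM in A375, all with dabrafenib (log2 1.68 ± 0.27, adjusted p = 3.64e-06). NRP2 had 84.0, 79.1 and 114 CPM in A375-BIR, against 586, 638 and 506 CPM in A375 (-2.68 ± 0.19, adjusted p = 2.27e-14). In neither gene did any library of one line reach the levels of the other. NRP1 thus made up 54.5%, 53.1% and 42.3% of neuropilin counts in A375-BIR with dabrafenib, against 4.93%, 4.90% and 3.19% in A375 with dabrafenib. The share was 37.2%, 37.4% and 38.9% in A375-BIR with DMSO and 1.32% in A375 with DMSO.

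**Figure D3:**
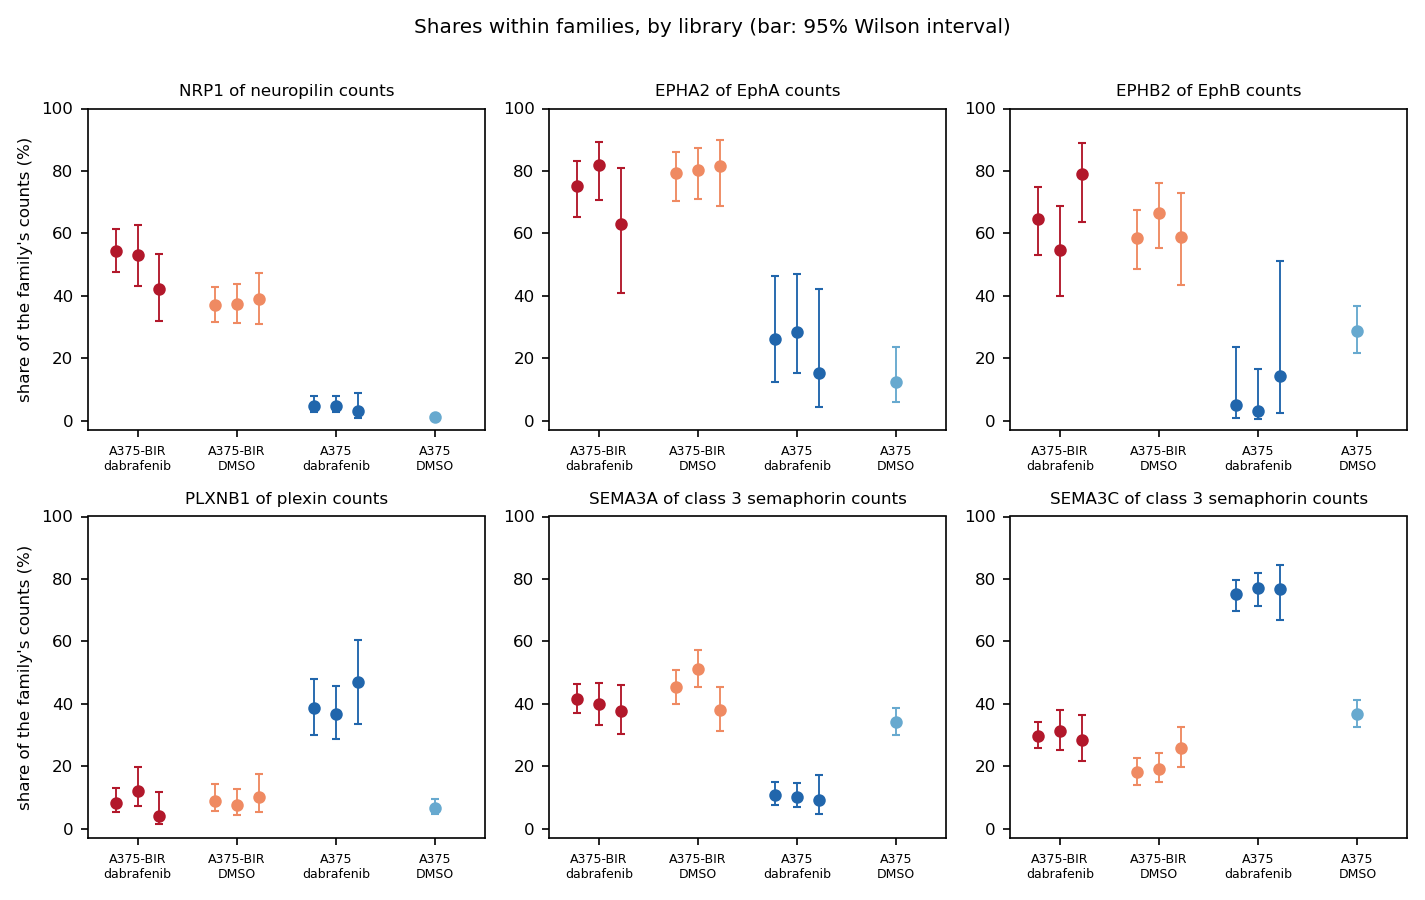
Share of a family's counts held by 1 member, in percent, for each library with its 95% Wilson interval (counting error only). NRP1 holds 42.3% to 54.5% of neuropilin counts in A375-BIR with dabrafenib and at most 4.93% in A375, and SEMA3C holds 75.1% to 77.0% of class 3 semaphorin counts in A375 with dabrafenib.

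Of the plexins, the receptors that carry the semaphorin signal into the cell, PLXNA2 was higher and PLXNB1 lower in A375-BIR under dabrafenib, and 4 were not called. PLXNB1, the receptor of SEMA4D, had 15.9, 22.4 and 7.63 CPM in A375-BIR, against 87.2, 98.7 and 128 CPM in A375 (log2 -2.62 ± 0.30, adjusted p = 3.81e-09). PLXNA2, a partner of neuropilins and a receptor of SEMA6A, had 14.9, 15.5 and 17.8 CPM in A375-BIR, against 4.05, 2.19 and 0 CPM in A375. On 3 counts in A375 its ratio of summed counts was 5.88 (exact 95% counting interval 1.84 to 30.0, adjusted p = 0.00319). It passed the filter only through the A375-BIR groups. PLXNB2 held the highest mean level of the plexins in A375-BIR, with 82.1, 68.8 and 73.8 CPM there and 60.8, 89.9 and 94.6 CPM in A375, and its groups overlapped (log2 -0.05 ± 0.23, adjusted p = 0.869).

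Among the ephrins, EFNB2 and EFNA5 were higher and EFNA1 lower in A375-BIR under dabrafenib. EFNB2, a membrane-spanning ephrin that binds EPHB4 and other EphB receptors, had 19.6, 8.596 and 30.5 CPM in A375-BIR and no count in any of the 4 A375 libraries. Set against 3 counts in A375, it was 6.99-fold higher with dabrafenib (adjusted p = 7.62e-05). It passed the filter only through the A375-BIR groups. EFNA1 stood at 122, 162 and 71.3 CPM in A375-BIR and at 249, 213 and 250.4 CPM in A375 (log2 -0.95 ± 0.23, adjusted p = 9.42e-04). EFNA5, at 62.5, 63.6 and 76.3 CPM in A375-BIR, against 52.7, 28.5 and 27.8 CPM in A375, was 0.78 ± 0.28 higher (adjusted p = 0.0222), a call lost without replicate 2 (0.55, adjusted p = 0.188) or replicate 3 (0.69, 0.0633) of A375, with DESeq2 (0.85, 0.0761) and after thinning (0.91, 0.0677).

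The Eph receptors split between the lines. EPHA2, the main EphA kinase of epithelial and many tumour cells, had 59.7, 92.8 and 30.5 CPM in A375-BIR, against 12.2, 17.6 and 11.1 CPM in A375, both with dabrafenib (log2 2.15 ± 0.38, adjusted p = 1.89e-05). EPHA3, another receptor of A-type ephrins, had 1.87, 6.88 and 5.09 CPM in A375-BIR, against 34.5, 43.9 and 61.2 CPM in A375 (-3.39 ± 0.48, adjusted p = 4.46e-07). EPHA2 passed the filter only through the A375-BIR groups and EPHA3 only through the A375 groups, so neither p-value is free of that selection. EPHA2 took 63.2% to 81.8% of EphA counts in A375-BIR with dabrafenib and 15.4% to 28.6% in A375 with dabrafenib, while EPHA3 took 2.35% to 10.5% and 71.4% to 84.6%.

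The EphB receptors gave 1 call up and 2 down. EPHB2, which binds B-type ephrins and EFNA5, had 42.9, 39.5 and 76.3 CPM in A375-BIR, against 2.03, 2.19 and 5.56 CPM in A375 with dabrafenib; on 3 counts in A375 its ratio was 18.2 (6.05 to 89.8, adjusted p = 9.55e-08). EPHB4, the receptor of EFNB2, had 11.2, 15.5 and 15.3 CPM in A375-BIR, against 32.4, 52.6 and 16.7 CPM in A375 (log2 -1.48 ± 0.38, adjusted p = 0.00184). The call was lost without replicate 2 of A375 (-1.05, adjusted p = 0.0811) and after thinning (-1.04, 0.192). EPHB3, with 2.80, 1.72 and 0 CPM in A375-BIR, against 4.05, 10.97 and 16.7 CPM in A375, lay just inside the threshold (-2.11 ± 0.87, adjusted p = 0.0478), and its call was lost in 9 of 11 alternatives.

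SLIT2 and ROBO4 were higher and ROBO1 lower in A375-BIR under dabrafenib. SLIT2, a secreted ligand of Robo receptors, had 16.8, 20.6 and 17.8 CPM in A375-BIR and no count in A375. Set against 3 counts in A375, with its own count taken as exact, it was 6.80-fold higher (adjusted p = 4.17e-05). It passed the filter only through A375-BIR with dabrafenib. ROBO4, known as the endothelial Robo, had 28.9, 27.5 and 12.7 CPM in A375-BIR, against 0, 0 and 5.56 CPM in A375. On 1 count in A375 its ratio was 28.7 (4.93 to 1155, adjusted p = 3.07e-05). It passed the filter only through the A375-BIR groups, and its call was lost after thinning (log2 2.48, adjusted p = 0.119). The endothelial markers CDH5 and VWF had no count in any library, and PECAM1 had 1. ROBO1, the most abundant Robo, had 62.5, 46.4 and 76.3 CPM in A375-BIR, against 79.1, 110 and 94.6 CPM in A375 (log2 -0.63 ± 0.24, adjusted p = 0.0367), a call lost in 10 of 14 alternatives. NTN4, a netrin of basement membranes and the most abundant one here, was not called at 17.7, 20.6 and 10.2 CPM in A375-BIR, against 4.05, 10.97 and 11.1 CPM in A375 (1.07 ± 0.55, adjusted p = 0.116).

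**Figure D4:**
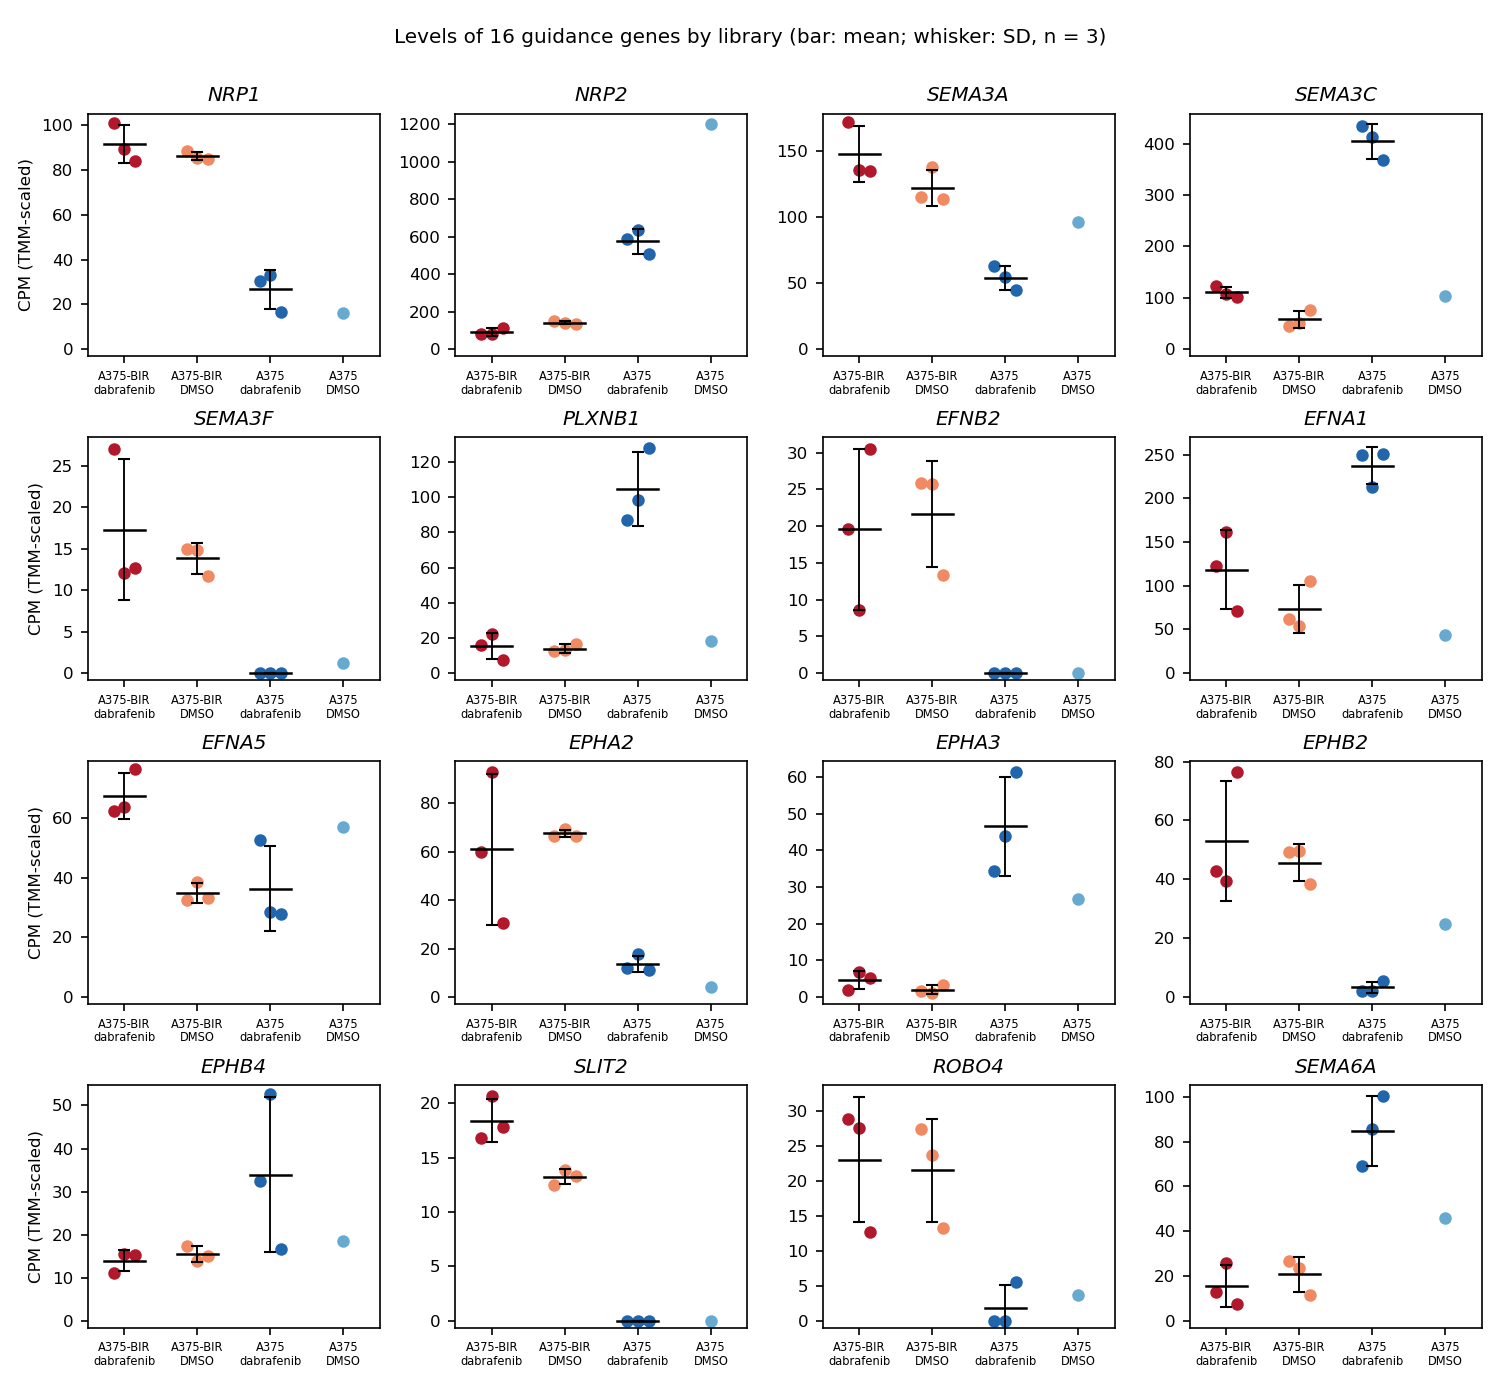
CPM of 16 guidance genes in each library (points), with the mean and SD of 3 libraries where there were 3; A375 with DMSO is 1 library. EFNB2 and SLIT2 have no count in A375, SEMA3F has none in A375 with dabrafenib, and NRP2 reaches 1201 CPM in the A375 DMSO library.

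The promoter windows of 4 genes are shown because 2 of them, EFNB2 and SLIT2, had counts in all 6 A375-BIR libraries and none in A375, because NRP2 had the most counts of all members and because EFNA1 had the most among ephrins. Each window runs from 250 bases before to 50 after the gene's start and is taken from RefSeq (GRCh38.p14), read along the gene's own strand. EFNB2 lies at chr13:106535613-106535912 on the minus strand, SLIT2 at chr4:20251655-20251954, NRP2 at chr2:205682251-205682550 and EFNA1 at chr1:155127626-155127925, all 3 on the plus strand. Capitals mark matches on either strand to a search for an AP-1 site (TGANTCA), a TEAD site (GGAATG), an E-box (CANGTG) and a SOX site (ACAANG); the matches shown do not overlap.
EFNB2: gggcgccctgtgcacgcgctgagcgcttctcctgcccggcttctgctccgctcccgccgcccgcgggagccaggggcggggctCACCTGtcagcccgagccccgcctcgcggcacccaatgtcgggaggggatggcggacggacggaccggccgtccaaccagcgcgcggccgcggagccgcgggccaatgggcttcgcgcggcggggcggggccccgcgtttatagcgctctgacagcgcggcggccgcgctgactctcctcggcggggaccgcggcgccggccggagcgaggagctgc
SLIT2: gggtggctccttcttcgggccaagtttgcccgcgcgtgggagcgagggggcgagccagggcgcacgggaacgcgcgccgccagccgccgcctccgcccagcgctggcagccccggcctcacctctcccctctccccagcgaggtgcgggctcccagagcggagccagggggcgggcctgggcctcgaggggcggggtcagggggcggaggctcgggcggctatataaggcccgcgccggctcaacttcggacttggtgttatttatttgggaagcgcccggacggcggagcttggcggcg
NRP2: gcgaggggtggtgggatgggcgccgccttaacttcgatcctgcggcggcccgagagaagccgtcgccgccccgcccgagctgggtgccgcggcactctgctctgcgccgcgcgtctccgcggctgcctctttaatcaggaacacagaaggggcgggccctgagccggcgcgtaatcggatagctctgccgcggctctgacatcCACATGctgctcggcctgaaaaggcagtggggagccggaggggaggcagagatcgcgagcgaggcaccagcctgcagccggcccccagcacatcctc
EFNA1: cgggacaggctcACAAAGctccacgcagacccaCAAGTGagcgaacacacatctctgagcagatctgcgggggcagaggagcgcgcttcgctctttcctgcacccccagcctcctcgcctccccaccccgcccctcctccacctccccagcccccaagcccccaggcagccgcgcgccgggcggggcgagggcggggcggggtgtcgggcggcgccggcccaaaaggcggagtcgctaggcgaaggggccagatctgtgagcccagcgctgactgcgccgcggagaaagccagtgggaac
EFNB2, NRP2 and EFNA1 each held 1 E-box and EFNA1 also 1 SOX match, while the SLIT2 window held none of the 4 motifs. Of all 35116 windows 42.0% hold an E-box, 35.5% a SOX match, 14.0% a TEAD match and 7.71% an AP-1 match. Of the 93 windows of the 61 guidance genes that had one, 35.5%, 23.7%, 10.75% and 1.08% did in the same order. GC content was 78.7% in the EFNB2 window, 74.3% in that of SLIT2, 70.0% in that of NRP2 and 71.7% in that of EFNA1, with 49, 36, 33 and 28 CpG dinucleotides, against medians of 58.7% and 14 over all windows. A match describes the letters of a window and says nothing of binding.

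Without drug the lines were compared with the single A375 DMSO library, of another run. In A375-BIR 12 of the 36 genes were higher and 12 lower, against 51.8% of all genes tested called (25.1% higher and 26.7% lower), with a median log2 difference of -0.18 against 0.01 over all genes. With library totals in place of TMM, which moves the median over all genes to 0.41, the split was 14 higher and 7 lower. NRP1 had 88.3, 85.2 and 85.0 CPM in A375-BIR, against 16.1 CPM in A375 (log2 2.41 ± 0.32, adjusted p = 7.48e-08), and NRP2 had 149, 143 and 133 CPM in A375-BIR, against 1201 CPM in A375 (-3.07 ± 0.20, adjusted p = 4.72e-15). EPHA2, with 66.6, 69.4 and 66.6 CPM in A375-BIR, against 4.33 CPM in A375, was 3.92 ± 0.48 higher (adjusted p = 1.65e-08). EPHA3, with 1.67, 0.99 and 3.33 CPM in A375-BIR, against 26.6 CPM in A375, fell by 3.78 ± 0.56 on the log2 scale (adjusted p = 8.41e-07).

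Set against 3 counts in A375 without drug, EFNB2, with 25.8, 25.8 and 13.3 CPM in A375-BIR, was 12.5-fold higher. On the same measure SLIT2, with 12.5, 13.9 and 13.3 CPM in A375-BIR, was 7.10-fold higher. SEMA3F had 14.99, 14.9 and 11.7 CPM in A375-BIR and 1.24 CPM, or 2 counts, in A375, a ratio of 11.5 (2.98 to 98.3, adjusted p = 7.67e-04). EPHB3 stood on 3 counts in the A375-BIR DMSO libraries (2.498, 0 and 0 CPM) and at 41.4 CPM in A375, where it was the leading EphB gene. In A375-BIR it was 38.8-fold lower (12.7 to 193). It passed the filter only through that A375 DMSO library, so its call is not free of that selection. SEMA3A, SEMA3B, PLXNB1, EFNA1, EPHB4 and ROBO1, called under dabrafenib, were not called here. EFNA1 lay 0.69 higher in A375-BIR on the log2 scale here and 0.95 lower under dabrafenib. With library totals in place of TMM, EFNA1 (1.09) and SEMA3A (0.76) were called higher, and EFNA1 also without replicate 2 of A375-BIR DMSO (0.88). EFNA5 was called lower in A375-BIR with DMSO (32.5, 38.6 and 33.3 CPM, against 56.9 CPM in A375; log2 -0.70 ± 0.28, adjusted p = 0.0370) and higher with dabrafenib; the call with DMSO was lost in 7 of 9 alternatives. Both line comparisons use separate libraries of each line.

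The response of the parental line rests on the same A375 DMSO library, and run and treatment cannot be told apart. Dabrafenib-treated A375 had 10 of the 36 genes called higher and 5 lower, against 38.6% of all genes tested (17.9% higher and 20.7% lower), with a median log2 change of 0 both for the 36 and over all genes. SEMA3C had 434, 412 and 367 CPM with dabrafenib and 103 CPM with DMSO (1.98 ± 0.25, adjusted p = 1.32e-07). EFNA1 had 249, 213 and 250.4 CPM with dabrafenib and 43.9 CPM with DMSO (2.42 ± 0.34, adjusted p = 1.13e-06), and PLXNB1 had 87.2, 98.7 and 128 CPM with dabrafenib and 18.6 CPM with DMSO (2.42 ± 0.35, adjusted p = 9.61e-07). In each of these genes all 3 treated libraries stood above the DMSO library.

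The others called higher in treated A375 were ROBO1 (79.1, 110 and 94.6 CPM with dabrafenib and 44.5 CPM with DMSO), EPHA2, SEMA4B, SEMA6A, EPHB4, NTN4 and UNC50. EPHA2 (log2 1.67), SEMA4B (1.39), SEMA6A (0.83), EPHB4 (1.01) and NTN4 (ratio 6.45, interval 1.33 to 61.3, on 2 counts with DMSO) lost the call in at least 5 alternatives each. UNC50 had 14.2, 30.7 and 16.7 CPM with dabrafenib and 1.24 CPM with DMSO, on 2 counts, a ratio of 17.2 (4.27 to 150.1, adjusted p = 2.94e-04); it is 1 of the 49 genes near 0 in that library.

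Lower in treated A375 were NRP2, PLXNA1, SEMA3A, EPHB2 and EPHB3; SEMA3A (log2 -0.77 ± 0.27, adjusted p = 0.0255) lost the call in 6 of 10 alternatives. NRP2 had 586, 638 and 506 CPM with dabrafenib and 1201 CPM with DMSO (log2 -1.04 ± 0.21, adjusted p = 1.58e-04). PLXNA1, a plexin that pairs with neuropilins, had 28.4, 26.3 and 11.1 CPM with dabrafenib and 81.02 CPM with DMSO (-1.71 ± 0.33, adjusted p = 9.17e-05). EPHB2 had 2.03, 2.19 and 5.56 CPM with dabrafenib and 24.7 CPM with DMSO, a 9.31-fold lower level on 3 counts (2.96 to 47.0). EPHB3 had 4.05, 10.97 and 16.7 CPM with dabrafenib and 41.4 CPM with DMSO (log2 -2.19 ± 0.56). EPHB3 passed the filter only through that DMSO library, so its call is not free of that selection.

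**Figure D5:**
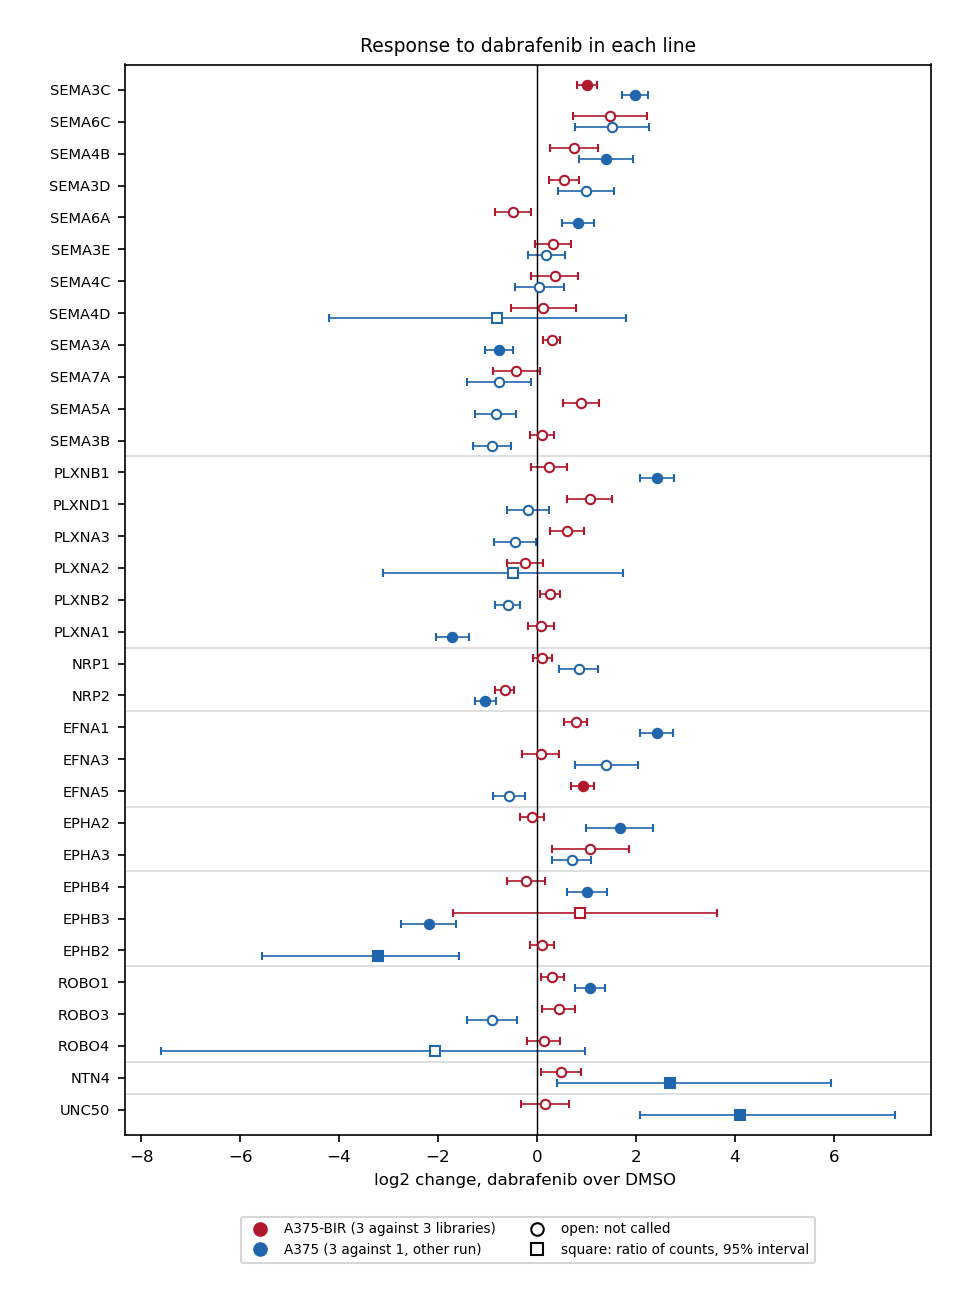
Log2 change with dabrafenib in A375-BIR (3 against 3 libraries) and in A375 (3 against 1, of another run) for 33 tested guidance genes; circles are fitted values with their SE, squares are ratios of summed counts with their exact 95% interval, and filled symbols were called. EFNB2, SLIT2 and SEMA3F are left out because both A375 groups had at most 2 counts.

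The responses of the lines were compared by the difference of their log2 changes. It was called for 10 of the 36 genes, 5 with a higher and 5 with a lower change in A375-BIR, against 22.6% of all genes tested (12.7% and 9.87%); with library totals in place of TMM the split was 4 and 8 and the median over all genes -0.24 in place of 0.04. EFNA5 changed by 0.92 in A375-BIR and by -0.56 in A375, a difference of 1.48 ± 0.40 (adjusted p = 0.00653). SEMA3A changed by 0.29 and -0.77 (difference 1.06 ± 0.33, adjusted p = 0.0169), and PLXNA1 by 0.08 and -1.71 (1.79 ± 0.43, adjusted p = 0.00247). SEMA5A, a membrane semaphorin with 22.4, 27.5 and 17.8 CPM in A375-BIR with dabrafenib, 9.16, 9.91 and 21.7 CPM in A375-BIR with DMSO, 18.2, 24.1 and 16.7 CPM in A375 with dabrafenib and 36.5 CPM in A375 with DMSO, differed by 1.73 ± 0.54 (adjusted p = 0.0184), with neither response called by itself. EPHB2 differed by 3.23 ± 0.72, a fitted value that rests on 3 counts in A375 with dabrafenib.

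Changes were lower in A375-BIR for PLXNB1 (0.24 in A375-BIR and 2.42 in A375, difference -2.18 ± 0.51, adjusted p = 0.00201), EFNA1 (0.78 and 2.42, -1.64 ± 0.40, 0.00367), SEMA3C (1.00 and 1.98, -0.98 ± 0.32, 0.0232), SEMA6A (-0.48 and 0.83, -1.32 ± 0.48, 0.0453) and UNC50 (-3.77 ± 1.00, 0.00614). SEMA3C was thus called higher with dabrafenib in both lines, with the larger change in A375. The neuropilins gave no call (NRP1 -0.74 ± 0.44, adjusted p = 0.231; NRP2 0.39 ± 0.29, 0.351). The calls of SEMA6A, SEMA3A, SEMA5A and SEMA3C were lost in 11 of 15, 6 of 16, 4 of 14 and 3 of 16 alternatives. Those of EPHB2, PLXNA1, PLXNB1 and EFNA1 were lost after thinning only, and EFNA5 and UNC50 kept theirs in each one run.

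Shares within the class 3 semaphorins and the ephrin-A genes followed these levels. SEMA3A held 37.9% to 41.6% of class 3 counts in A375-BIR with dabrafenib, 38.2% to 51.3% in A375-BIR with DMSO, 9.30% to 10.9% in A375 with dabrafenib and 34.1% in A375 with DMSO. SEMA3C held 28.6% to 31.3%, 18.1% to 25.8%, 75.1% to 77.0% and 36.8% in the same order. EFNA1 held 43.8% to 65.7% of ephrin-A counts in A375-BIR with dabrafenib, 48.6% to 66.3% in A375-BIR with DMSO, 76.4% to 83.3% in A375 with dabrafenib and 40.3% in A375 with DMSO. With 3 libraries against 3, an exact permutation test of a share cannot give a two-sided p under 0.1, so the shares are given without a test.

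The 27 genes with counts that were not tested are compared by their summed counts, with exact 95% intervals that cover counting error only. Where 1 side had 0 counts, the fold is set against 3 counts there, takes the other count as exact and has no interval. EPHB1 had 21 counts in A375-BIR and 1 in A375 with dabrafenib, a ratio of 11.6 (1.86 to 479), and 35 and 1 with DMSO, a ratio of 20.1 (3.38 to 818). EPHA4 had 16 and 0 counts with dabrafenib, 2.94-fold higher in A375-BIR against 3 counts, and 32 and 6 with DMSO (3.07, 1.27 to 8.98). EPHA6, with 12 counts in A375-BIR with dabrafenib and none in A375, was 2.21-fold higher against 3 counts, and ROBO2, with 11 and none, 2.02-fold. SEMA6D had 0 counts in A375-BIR and 6 in A375 with dabrafenib, 3.63-fold lower in A375-BIR against 3 counts. Of the UNC5 receptors, UNC5B had 18 counts in A375-BIR and 4 in A375, UNC5C had 0 and 3, and the summed counts of UNC5B did not separate the lines (with dabrafenib a ratio of 2.21, 0.440 to 21.3).

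Genes that act beside these families were counted from 4 lists of partners and signal carriers, to be read against the 42.7% of all genes tested that were called between the lines under dabrafenib (22.6% higher and 20.2% lower) and the 2.46% called in the response of A375-BIR. Of 22 tested genes of semaphorin and plexin signalling, 5 were higher and 8 lower in A375-BIR than in A375 under dabrafenib (59.1% called, against 42.7% of all genes), and edgeR called 0 with dabrafenib in A375-BIR (median log2 change 0.14, 3 genes at an unadjusted p under 0.05). MICAL2, an actin-oxidising enzyme, averaged 67.9 ± 19.01 CPM in A375-BIR, against 1.35 ± 2.34 CPM in A375 (SD, n = 3 each; adjusted p = 3.98e-09), and DPYSL2, a mediator of SEMA3A, 133 ± 14.5 and 45.0 ± 3.51 CPM (6.49e-07). FARP2, an exchange factor bound to A-type plexins, averaged 29.3 ± 1.27 CPM in A375-BIR, against 135 ± 18.9 CPM in A375 (2.54e-09), and LIMK2, a cofilin kinase, 11.4 ± 1.79 and 73.6 ± 26.8 CPM (1.24e-08). These 4 had the smallest p of their list, and both directions occur among them. MICAL2 had 4.33 CPM in A375 with DMSO, and both A375 groups lay under the filter's level of 17.5 CPM. With dabrafenib its A375 mean lay under the 2.66 CPM that 3 counts make over that group. Its p-value is not free of that selection, and the same holds for any list gene that passed only through groups where it was high.

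Of 16 tested genes of Eph and ephrin signalling, 2 were higher and 5 lower in A375-BIR than in A375 under dabrafenib (43.8% called, near the 42.7% of all genes). KALRN, an exchange factor, averaged 0.573 ± 0.993 CPM in A375-BIR, against 30.1 ± 12.2 CPM in A375 (adjusted p = 4.69e-06). That A375-BIR mean lay under the 1.47 CPM that 3 counts make over the group, so this p-value rests on few counts there. NCK2, an adaptor, averaged 16.4 ± 5.38 and 47.7 ± 6.10 CPM (3.10e-04), and CHN1, a Rac GTPase-activating protein, 8.26 ± 1.78 and 33.4 ± 15.4 CPM (0.00224). VAV2, an exchange factor recruited by Eph receptors, was the 1 gene of this list called in the response of A375-BIR, with 17.3 ± 0.511 CPM with dabrafenib and 5.54 ± 0.975 CPM with DMSO (log2 1.65 ± 0.45, adjusted p = 0.0338).

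Of 19 tested genes of netrin, Slit and RGM signalling, 8 were higher and 4 lower in A375-BIR than in A375 under dabrafenib (63.2% called, against 42.7% of all genes), and edgeR called 0 with dabrafenib in A375-BIR (median log2 change 0.14, 2 genes at an unadjusted p under 0.05). TRIO, an exchange factor downstream of netrin, averaged 320 ± 66.7 CPM in A375-BIR, against 73.6 ± 10.3 CPM in A375 (adjusted p = 1.35e-10), and DOCK1 94.6 ± 8.81 and 40.9 ± 4.07 CPM (9.76e-05). GPC1, a heparan sulfate proteoglycan that binds Slits, averaged 12.96 ± 9.89 CPM in A375-BIR, against 80.2 ± 22.2 CPM in A375 (6.97e-07).

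Of 11 tested co-receptors and other ligands of neuropilins and plexins, 4 were higher and 4 lower in A375-BIR than in A375 under dabrafenib (72.7% called, against 42.7% of all genes). MET, a kinase that associates with B-type plexins, averaged 264 ± 31.4 CPM in A375-BIR, against 77.4 ± 14.8 CPM in A375 (adjusted p = 4.86e-09), and ITGB1, the integrin beta chain bound by SEMA7A, 229 ± 74.8 and 56.4 ± 10.9 CPM (1.08e-08). NRCAM, an adhesion molecule that associates with neuropilins, averaged 7.50 ± 3.36 CPM in A375-BIR, against 80.0 ± 12.7 CPM in A375 (4.06e-10), and FLT1, a VEGF receptor, 3.24 ± 0.619 and 46.0 ± 13.8 CPM (3.92e-08). L1CAM, the NRP1 partner in the SEMA3A receptor, was the 1 gene of this list called in the response of A375-BIR (102 ± 20.1 CPM with dabrafenib and 63.6 ± 9.39 CPM with DMSO, log2 0.72 ± 0.20, adjusted p = 0.0456), and it is named for that call.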

How the data were processed

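Transcripts were measured in 12 3′ tag libraries, and 10 of them were used; the 2 that list mouse genes were left out, so the planned 3 A375 DMSO libraries became 1. The deposited values are raw read counts per gene, with hg38 (build 38) named per the submitters' processing notes; the sources used here name no aligner, counter, annotation or strand setting. Where 3′ ends lie near a gene on the other strand (PLXNA3, PLXNC1 and SEMA4G among the members), reads of both cannot be told apart. Rows that name no gene, of which reads without a feature came to 20.1% to 30.9% of reads, stayed out of library totals. IDs were paired with symbols and biotypes through GENCODE 29 (33132 of 33694 matched).

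From the counts, edgeR 4.0.16 (R 4.3.3, limma 3.58.1) fitted a quasi-likelihood model with 1 coefficient per group, TMM factors, its default low-count filter (minimum count 10) and robust dispersion over all 10 libraries, which left 10236 genes, 6 residual degrees of freedom and a common biological coefficient of variation of 0.136. A difference was called where p, adjusted by Benjamini-Hochberg across the tested genes, fell under 0.05. An SE is the log2 value divided by the square root of F. Where a group had 0 counts, a fold is set against 3 counts over that group and takes the other group's count as exact. With 1 to 3 counts a ratio with an exact 95% interval is given. Intervals cover counting error only, since reads carry no molecular identifiers.

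The members and the 4 lists were chosen with earlier results of these data known. Values in every library are given for members called in A375-BIR's response, for the 16 called members with the largest difference between lines under dabrafenib, for those whose responses differed, and for their most abundant partners; other members are named for their calls. List genes named are up to 4 per list with the smallest p. Alternatives were RLE factors, library totals, DESeq2 1.42.0, other filters, fewer groups, thinning to 198690 counts, a replicate block and leaving out each replicate.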

Additional observations from a re-analysis of the deposited data

Results flagged for a closer look

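The response to dabrafenib differed between the lines for 10 of the 36 tested guidance genes by a test of the difference itself, in edgeR's quasi-likelihood fit. That is 27.8%, against 22.6% of all genes tested. The log2 change in A375-BIR minus that in A375 was 3.23 for EPHB2, 1.79 for PLXNA1, 1.73 for SEMA5A, 1.48 for EFNA5 and 1.06 for SEMA3A. It was -3.77 for UNC50, -2.18 for PLXNB1, -1.64 for EFNA1, -1.32 for SEMA6A and -0.98 for SEMA3C. Each difference includes the A375 DMSO library, which has another run stamp, and UNC50 had 2 counts in it. EPHB2 had 3 counts in A375 with dabrafenib, and its call was lost after thinning. UNC50 does not encode a netrin receptor and is kept under the symbol rule. The call of SEMA6A was lost in 11 of 15 alternatives and that of SEMA3A in 6 of 16.

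The A375 DMSO files of replicates 2 and 3 hold 224221 and 652439 gene counts under mouse gene IDs, although their labels state human cells, and entered no comparison. No group had 4 or more libraries, so no single library was tested against its group for standing apart.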

How the results depend on the processing

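Of the single-gene values under the alternatives, 1865 kept their direction and side of the threshold, 147 lost a call, 31 gained one and 1 reversed: EPHA2 in the A375 response, at -0.17 after thinning. The cause of a changed number of calls was not tested, but a mean count of at least 50 leaves fewer genes to test and thinning leaves fewer counts. For the lines under dabrafenib with only these 2 groups fitted, SEMA3D and ROBO1 lost the call. The other calls lost there belonged to genes no longer tested. The range with 1 replicate left out is given for each comparison, whatever its size. The number of guidance genes called moved by 1.5 times or more as follows. For dabrafenib in A375-BIR (2) it was 4 with no filter, 3 without the A375 DMSO library, 1 with a mean count of at least 50, 1 with DESeq2 and 0 after thinning, and 0 to 4 with 1 replicate left out: 0 without A375-BIR DMSO replicate 1, 1 without its replicate 2 and 4 without A375-BIR dabrafenib replicate 3. For the lines under dabrafenib (22) it was 4 with a mean count of at least 50, 13 with only these 2 groups fitted and 10 after thinning, and 17 to 21 with 1 replicate left out. For dabrafenib in A375 (15) it was 10 with no filter, 4 with a mean count of at least 50, 8 with DESeq2 and 5 after thinning, and 9 to 12 with 1 replicate left out, with 9 without A375 dabrafenib replicate 2. For the lines in DMSO (24) it was 3 under a mean-count minimum of 50, 4 after thinning and 16 with DESeq2, which tested 63 guidance genes and lost the calls of 9 of the 24, and 21 to 22 with 1 replicate left out. For the difference of responses (10) it was 3 with a mean count of at least 50, 5 with DESeq2 and 2 after thinning, and 7 to 12 with 1 replicate left out.

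With the replicate number as a block, 2, 20, 10, 21 and 8 guidance genes were called in the same order of comparisons, so that 15 became 10 for dabrafenib in A375. Deviations from group means correlated at -0.33 to 0.27 (median 0.06) between same-numbered libraries. Between differently numbered ones the range was -0.25 to 0.38 (median 0.003). The ranges overlap and show no pairing by number, but with 3 libraries per group they cannot exclude a shared culture or preparation. The smallest library, 198690 counts, limits what can be seen of genes with few counts, and the single A375 DMSO library lets neither its spread nor its run be separated from its group.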
